A study of Gallus gallus with 12 samples.

Results

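The forkhead (FOX) and SOX transcription factor genes were examined in the 4 tissue compartments of the chicken dorsal mesentery. Members were all chicken probe sets whose single gene symbol names a FOX gene or a numbered SOX gene, without SOX7 and SOX10, and each gene was represented by its probe set with the highest mean signal over the 12 arrays. This gave 38 genes, 24 FOX and 14 SOX, out of 13008 named chicken genes on the array. They were covered by 65 probe sets, and 16 of the 38 genes had more than 1.

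Forkhead proteins bind DNA through a winged-helix domain and SOX proteins through an HMG box, and members of a subfamily bind very similar sites. Tissues can therefore differ in which member is expressed where. In embryonic trunk tissue, FOXC1 and FOXC2 are known from mesoderm and developing vessels, FOXF1 from the mesenchyme around the gut downstream of hedgehog signals, FOXA genes from endoderm, FOXM1 from dividing cells, and SOX17 and SOX18 from endothelium. The FOXO proteins act where insulin and growth factor signalling is low, SOX9 with SOX5 and SOX6 drives cartilage genes, and SOX1, SOX2 and SOX3 mark neural and other progenitors.

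The dorsal mesentery carries the embryonic gut, and each of its sides has mesenchyme under a coelomic epithelium. Leghorn embryos, for which the labels give no treatment and no altered genotype, were taken at Hamburger-Hamilton stage 21, at about day 3.5 of incubation. Both layers of both sides were cut by laser from frozen sections of 8 µm, which gave the groups left mesenchyme, right mesenchyme, left epithelium and right epithelium. The 1939 sections came from 3 biological experiments, and the pooled material of each compartment in each experiment was hybridised to its own Affymetrix array, so that n = 3 per compartment. The sources used here do not give the number of embryos in a pool, and p-values measure the spread between these 3 pools.

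All signals are linear MAS5 intensities, which the authors had scaled to a common level on every array. On each array 59 control probe sets with no target in chicken RNA served as a floor, at their 95th percentile, which lay between 19.3 and 39.6. Right epithelium 3 had the highest floor. Its residual SD of 0.322 log2 and that of right mesenchyme 3, 0.306, were the largest, and the remaining arrays had 0.253 to 0.288. The layer labels were set against markers. Of 7 tested coelomic epithelial markers 5 passed as higher in epithelium, among them PODXL by 1.67 ± 0.08 log2 (SE). Of 13 tested mesenchymal markers LUM, DCN and PDGFRA passed as higher in mesenchyme. The summed signal of the 14 matched mesenchymal markers was 35009 to 36568 in left and 40272 to 41926 in right mesenchyme. It was 27946 to 32877 in left epithelium and 37681 to 38884 in right epithelium, above left mesenchyme. The lists held no marker of left or right, so the side labels were not checked. Of the markers of other tissues that a section could touch, EPCAM was the only 1 of 6 tested endodermal genes that passed between the layers (0.37 ± 0.07 log2 higher in epithelium), and CLDN3 was above the floor on no array. Of 7 tested genes of gonad, adrenal and nephros, EMX2 (1.41 ± 0.22) and LHX9 (1.04 ± 0.11) passed as higher in epithelium. Of 6 tested genes of neural crest and enteric neurons, NEFM (-0.92 ± 0.11) and EDNRB (-0.73 ± 0.13) passed as lower there. DAZL, 1 of 4 tested germ cell genes, was higher in epithelium (0.31 ± 0.08). Over all probe sets tested, 2.00% passed as higher and 2.79% as lower. The part of these markers in the layer differences was not tested.

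Of the 38 genes, 17 were above the floor on all 12 arrays, 14 on some and 7 on none. The 7 were FOXE3, FOXF1, FOXI1, FOXN1, SOX2, SOX13 and SOX14. FOXF1, the factor best known from gut mesenchyme, was listed at 0.910 to 4.99 signal units by its single probe set, so that it had no usable measurement here. Its neighbour FOXC2, separated from it by 1 protein-coding gene in the chicken RefSeq annotation GRCg7b, was clearly measured. The brightness of different probe sets cannot be compared, so no gene is called more highly expressed than another.

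**Figure D1:**
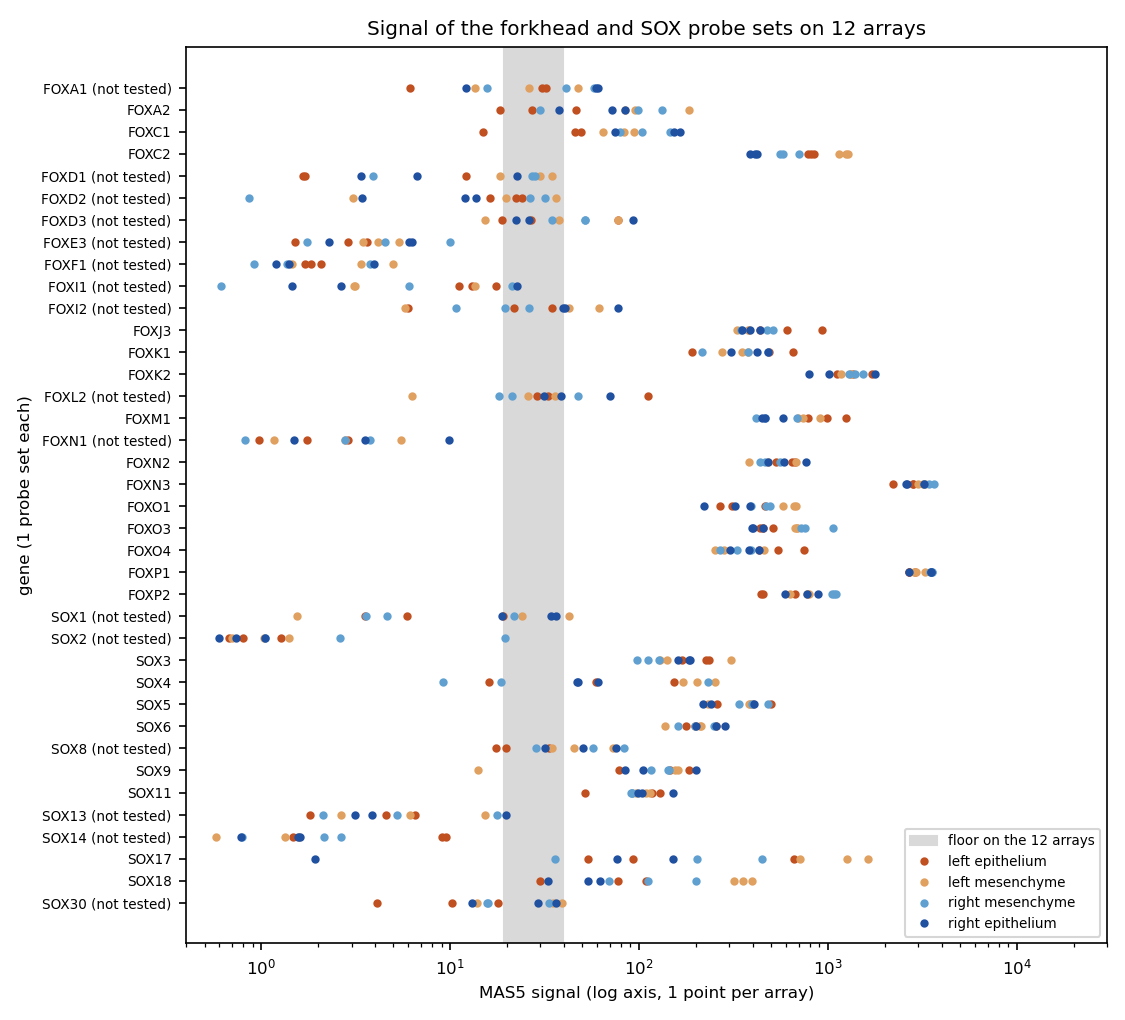
MAS5 signal (log axis) of the 38 forkhead and SOX genes, 1 probe set each, on the 12 arrays; points are single arrays coloured by compartment and the grey band spans the floors of the 12 arrays (19.3 to 39.6). The 16 genes marked as not tested lie in, near or below the band, and FOXC2 separates into its 4 compartments.

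Tests were run on 23063 probe sets whose mean log2 signal passed a filter, and 22 of the 38 genes (14 FOX and 8 SOX) were among them. The filter used the mean over all arrays, so a gene high in only some compartments can have entered through them. The 16 genes left out were FOXA1, FOXD1, FOXD2, FOXD3, FOXE3, FOXF1, FOXI1, FOXI2, FOXL2, FOXN1, SOX1, SOX2, SOX8, SOX13, SOX14 and SOX30. None of their arrays exceeded a signal of 112, reached by FOXL2, a gene of the ovary, in left epithelium 2. With the filter dropped, limma called 0 of the 16 in any comparison, and 1 had an unadjusted p under 0.05 in epithelium against mesenchyme (lowest adjusted p = 0.26). Among them FOXD3, a neural crest factor known in chicken, was above the floor on 9 of 12 arrays and SOX8, a SOX9 relative, on 10.

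FOXC2, which encodes a forkhead factor of mesoderm and vessels, was the only tested member that passed both between the sides and between the layers, and its 4 compartments did not overlap. Its signal was 1250, 1146 and 1273 in the left mesenchyme of experiments 1 to 3, and 705, 581 and 556 in right mesenchyme. It was 842, 784 and 814 in left epithelium and 421, 384 and 412 in right epithelium. The order was thus left mesenchyme, left epithelium, right mesenchyme, right epithelium, with a gap between each pair of neighbours. FOXC2 rose on the left by 0.98 ± 0.18 log2 in mesenchyme (1.98-fold, limma adjusted p = 0.0049) and by 0.98 ± 0.18 in epithelium (1.97-fold, adjusted p = 0.0044). Within the experiments the left-right difference was 0.81, 0.96 and 1.17 log2 in mesenchyme and 0.97, 1.00 and 0.96 in epithelium. The change was therefore of like size in both layers, and the interaction of side and layer was -0.01 log2 with a 95% interval from -0.53 to 0.52.

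The layers differed in FOXC2 as well. It was lower in epithelium than in mesenchyme by 0.58 log2 on the left and 0.57 on the right, and over both sides it fell by 0.58 ± 0.12 (1.49-fold, adjusted p = 0.011). The calls held without each of the 12 arrays in turn in all 3 comparisons. It ended without experiment 1, 2 or 3 in mesenchyme (adjusted p = 0.062, 0.12 and 0.083), and without experiment 1 or 2 in epithelium (0.079 and 0.12) or with the 6 epithelial arrays alone (0.076). The layer call ended without experiment 1, 2 or 3 (0.14, 0.14 and 0.054). The other FOXC2 probe set was far dimmer and noisier, with means of 122 and 68.9 in left and right mesenchyme, and differed by 0.78 ± 0.39 (adjusted p = 0.44). In epithelium its means were 101 and 65.2 (0.48 ± 0.39, adjusted p = 0.68), and between the layers it differed by -0.15 ± 0.27 (adjusted p = 0.84). The 3 prime minus 5 prime signal of GAPDH, a gauge of RNA integrity, exceeded that of the 6 right arrays by 0.17 log2 on the 6 left arrays. The two-sided exact permutation test gave p = 0.043, or 0.17 after adjustment over 4 tests. Its part in the left-right differences was not tested.

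FOXC1, the closest relative of FOXC2, had no call. Its signal in epithelium was 45.9, 49.4 and 14.9 on the left and 74.6, 153 and 164 on the right, so that the groups did not overlap and the left was the lower side. The left value of 14.9 was below the floor of its array (25.1). The difference was -1.49 ± 0.41 log2 and did not pass (adjusted p = 0.072). Over 26 alternatives it ranged from -1.96 to -0.93 and its adjusted p from 0.028 without right epithelium 1 to 0.46 without experiment 3, where the difference was -0.96. In mesenchyme FOXC1 was at 94.4, 82.9 and 64.2 on the left and 145, 79.5 and 104 on the right (-0.36 ± 0.41, adjusted p = 0.82). The difference between FOXC1 and FOXC2 was not tested, since 2 probe sets are not on a common scale.

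FOXM1, whose product switches on genes of mitosis, was higher in left than in right epithelium. Its signal was 984, 1250 and 785 in left epithelium against 580, 447 and 463 in right epithelium, without overlap. It rose by 0.98 ± 0.23 log2 (1.97-fold, adjusted p = 0.028). In mesenchyme it was at 694, 736 and 902 on the left and 416, 683 and 463 on the right. These groups did not overlap either, but the difference of 0.59 ± 0.23 did not pass (adjusted p = 0.27). The side effect was not shown to differ between the layers (interaction 0.39 ± 0.32, adjusted p = 0.95). Between the layers FOXM1 differed by 0.15 ± 0.16. The epithelial call ended under 10 of 26 alternatives. It ended without left epithelium 1 (adjusted p = 0.10), left epithelium 2 (0.18), right epithelium 2 (0.17) or right epithelium 3 (0.085), and with the 6 epithelial arrays alone (0.090). The call was also lost without experiment 1, 2 or 3 (0.10, 0.38 and 0.063) and without the intensity trend in the fit (0.11).

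Mitotic genes known to be bound by FOXM1 were set beside it. Of 19 listed genes 15 were matched, all of them tested and above the floor on every array. On the left, 3 of 15 rose in epithelium: the checkpoint kinase gene TTK by 0.85 ± 0.18 log2, BUB1B by 0.36 ± 0.09 and CENPF by 0.47 ± 0.12. In mesenchyme 1 of 15 rose, BUB1B by 0.37 ± 0.09. The list's median change was 0.40 log2 in epithelium and 0.37 in mesenchyme, against 0.011 and 0.0018 over all probe sets tested. Epithelium exceeded mesenchyme for 6 of 15, among them PLK1 (0.44 ± 0.09), CENPE (0.40 ± 0.08), AURKB (0.49 ± 0.10) and CENPF (0.35 ± 0.08), with a median of 0.33. Over all probe sets tested, 1.00% rose in left epithelium, 0.932% rose in left mesenchyme and 2.00% were higher in epithelium than in mesenchyme. The summed signal of the 15 genes ranged from 58145 to 59182 in left epithelium, 45561 to 48875 in left mesenchyme, 33096 to 39186 in right mesenchyme and 43285 to 48457 in right epithelium. Their part in the FOXM1 difference was not tested.

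Cell type markers also moved with side. Over all probe sets tested, 0.932% rose and 1.06% fell in left mesenchyme, and 1.00% rose and 1.47% fell in left epithelium. Of 6 tested blood genes 5 fell in left epithelium, all of them globin genes, with HBA1 at -1.43 ± 0.26 log2, and the summed blood signal was 19311 to 63583 there against 68333 to 71829 in right epithelium. The germ cell gene DAZL rose on the left by 0.52 ± 0.11 in mesenchyme and by 0.48 ± 0.11 in epithelium, 1 of 4 tested germ cell genes. Of 6 tested genes of neural crest and enteric neurons, TH fell and NEFM rose on the left in both layers, and EDNRB fell in left epithelium by 1.39 ± 0.19. Of 7 tested genes of gonad, adrenal and nephros, GATA4 fell on the left by 1.27 ± 0.17 in mesenchyme and by 0.87 ± 0.17 in epithelium, and LHX9 fell in left mesenchyme by 0.94 ± 0.16. Of 7 tested coelomic epithelial genes, ALDH1A2 fell on the left in both layers (by 0.75 ± 0.10 in mesenchyme and by 0.69 ± 0.10 in epithelium). KRT7 fell in left mesenchyme by 0.59 ± 0.10, and TCF21 fell in left epithelium by 1.47 ± 0.33. The summed signal of the 9 matched genes was 16093 to 16719 in left against 22414 to 23681 in right mesenchyme, and 28616 to 29740 in left against 35871 to 38063 in right epithelium. Of 13 tested mesenchymal genes 1 rose in left mesenchyme, LUM by 0.90 ± 0.20, and 2 fell, COL3A1 by 0.69 ± 0.12 and POSTN by 0.68 ± 0.14. In left epithelium 2 of the 13 rose and 3 fell. Among them were LUM (1.88 ± 0.20), POSTN (-0.80 ± 0.14), COL1A1 (-0.56 ± 0.11) and COL5A1 (-0.39 ± 0.09). Endothelial markers were higher in left mesenchyme, with values given beside SOX17 and SOX18. Neither of 2 tested genes of neural tube and notochord passed. The part of these markers in the FOXC2 and FOXM1 differences was not tested.

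SOX17 and SOX18, SOX factors of the endothelium, were lower in epithelium than in mesenchyme. SOX18 had signals of 395, 355 and 319 in left mesenchyme, and 111, 199 and 69.0 in right mesenchyme. It was at 109, 29.8 and 77.1 in left epithelium and at 53.6, 32.8 and 61.8 in right epithelium. Left mesenchyme stood above every other array, and right mesenchyme overlapped left but not right epithelium. SOX18 fell by 1.62 ± 0.29 log2 in epithelium (3.08-fold, adjusted p = 0.0029). That fall was lost only without experiment 2 (adjusted p = 0.080) among 25 alternatives.

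SOX17 was the most variable of the called genes. Its signal was 1255, 713 and 1627 in left mesenchyme and 450, 35.8 and 202 in right mesenchyme. In epithelium it was 92.2, 660 and 53.6 on the left and 151, 76.2 and 1.91 on the right, where the last value was below the floor of its array. Left mesenchyme was again above all other arrays, and left epithelium 2 came close to it. SOX17 fell by 2.08 ± 0.58 log2 in epithelium (4.23-fold, adjusted p = 0.048), but in experiment 2 the difference was 0.36 in the opposite direction. The call ended under 17 of 24 alternatives, with an adjusted p of 0.15 without right epithelium 3, 0.15 without left epithelium 1 and 0.44 without experiment 3. The other SOX17 probe set was above the floor on 1 array, with means of 8.45 in left mesenchyme and 22.5 in right epithelium, and was not tested.

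Neither gene passed between left and right mesenchyme, although the groups did not overlap. SOX17 differed by 2.72 ± 0.82 log2 (adjusted p = 0.12) and SOX18 by 1.49 ± 0.42 (adjusted p = 0.088), each higher on the left in 3 of 3 experiments. With only the 6 mesenchymal arrays in the fit both passed (adjusted p = 0.0027 and 0.036). SOX17 also passed with array weights (0.0496) and without left epithelium 2 (0.031), and SOX18 without right mesenchyme 2 (0.021). The highest adjusted p were 0.51 for SOX17, without left mesenchyme 3, and 0.39 for SOX18, without experiment 1. In epithelium the side difference was 1.40 ± 0.82 for SOX17 and 0.34 ± 0.42 for SOX18 (adjusted p = 0.52 and 0.82).

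Endothelial markers moved with both genes. Of 19 listed markers 16 were matched, 14 tested and 13 above the floor on all arrays. In epithelium 10 of the 14 tested were lower and 0 higher, with CDH5, the VE-cadherin gene, at -2.62 ± 0.18 log2, CLDN5 at -2.20 ± 0.21, FLI1 at -2.02 ± 0.24 and ERG at -1.88 ± 0.24. In left mesenchyme 5 of 14 rose over the right, among them CDH5 (2.09 ± 0.25) and CLDN5 (1.74 ± 0.30). Over all probe sets tested, 2.79% were lower in epithelium and 0.932% rose in left mesenchyme. The summed signal of the 16 markers was 11028 to 11429 in left mesenchyme, 4835 to 5632 in right mesenchyme, 1785 to 2999 in left epithelium and 2010 to 2689 in right epithelium. Its part in the SOX17 and SOX18 differences was not tested. In such pooled tissue, fewer cells of a type and less RNA per cell cannot be told apart.

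**Figure D2:**
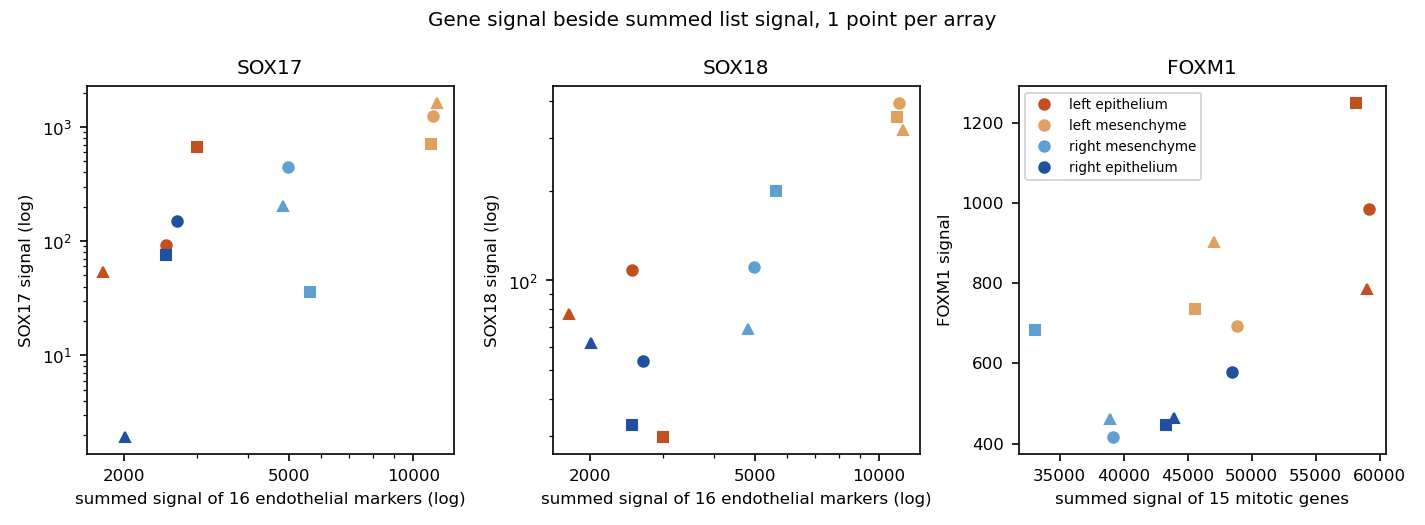
Signal of SOX17 and SOX18 against the summed signal of 16 endothelial markers (both axes log) and of FOXM1 against that of 15 mitotic genes (linear axes); each point is 1 array, coloured by compartment, with circles, squares and triangles for experiments 1, 2 and 3. The 3 left mesenchymal arrays lie at marker sums of 11028 to 11429 and hold the highest SOX17 and SOX18 signals, and the 3 left epithelial arrays hold the highest mitotic sums.

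FOXO1 and FOXO3, forkhead factors that growth factor signalling through AKT keeps out of the nucleus, were lower in epithelium. FOXO3 had signals of 684, 665 and 686 in left and 718, 758 and 1069 in right mesenchyme, against 509, 453 and 435 in left and 453, 394 and 398 in right epithelium. All 6 epithelial arrays lay below all 6 mesenchymal arrays, which held for 1.19% of all probe sets tested and for no other tested member. FOXO3 fell by 0.76 ± 0.15 log2 (1.69-fold, adjusted p = 0.0044), and the call held without each of the 12 arrays in turn. It ended without experiment 2 (adjusted p = 0.080) or experiment 3 (0.063). Its 2 other probe sets had changes of -0.42 ± 0.24 and -0.25 ± 0.27 and did not pass.

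FOXO1 was at 663, 576 and 680 in left and 392, 494 and 470 in right mesenchyme. It was at 268, 464 and 309 in left and 385, 324 and 220 in right epithelium, so that left mesenchyme stood above every other array and left epithelium overlapped both right compartments. It fell by 0.72 ± 0.18 log2 in epithelium (1.65-fold, adjusted p = 0.029). The call ended under 13 of 25 alternatives. It was lost without any of 8 single arrays, with adjusted p from 0.060 without left epithelium 3 to 0.097 without left mesenchyme 3. It was also lost without experiment 1, 2 or 3 (0.11, 0.10 and 0.23) and without the intensity trend in the fit (0.069). FOXO4 ran the other way at 0.47 ± 0.19 and did not pass (adjusted p = 0.20).

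Genes known as FOXO targets were set beside these factors. Of 21 listed, 18 were matched and 16 tested. In epithelium 3 fell and 0 rose: SESN3 by 0.72 log2, PIK3IP1 by 0.51 and KLF2, which is also an endothelial gene, by 0.91. Their adjusted p were 0.0047, 0.0075 and 0.035, and 2.79% of all probe sets tested fell in this comparison. The list's median was -0.13, against -0.011 over all probe sets tested. Between the sides KLF6 alone passed, lower in left epithelium (-0.63 ± 0.12).

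**Figure D3:**
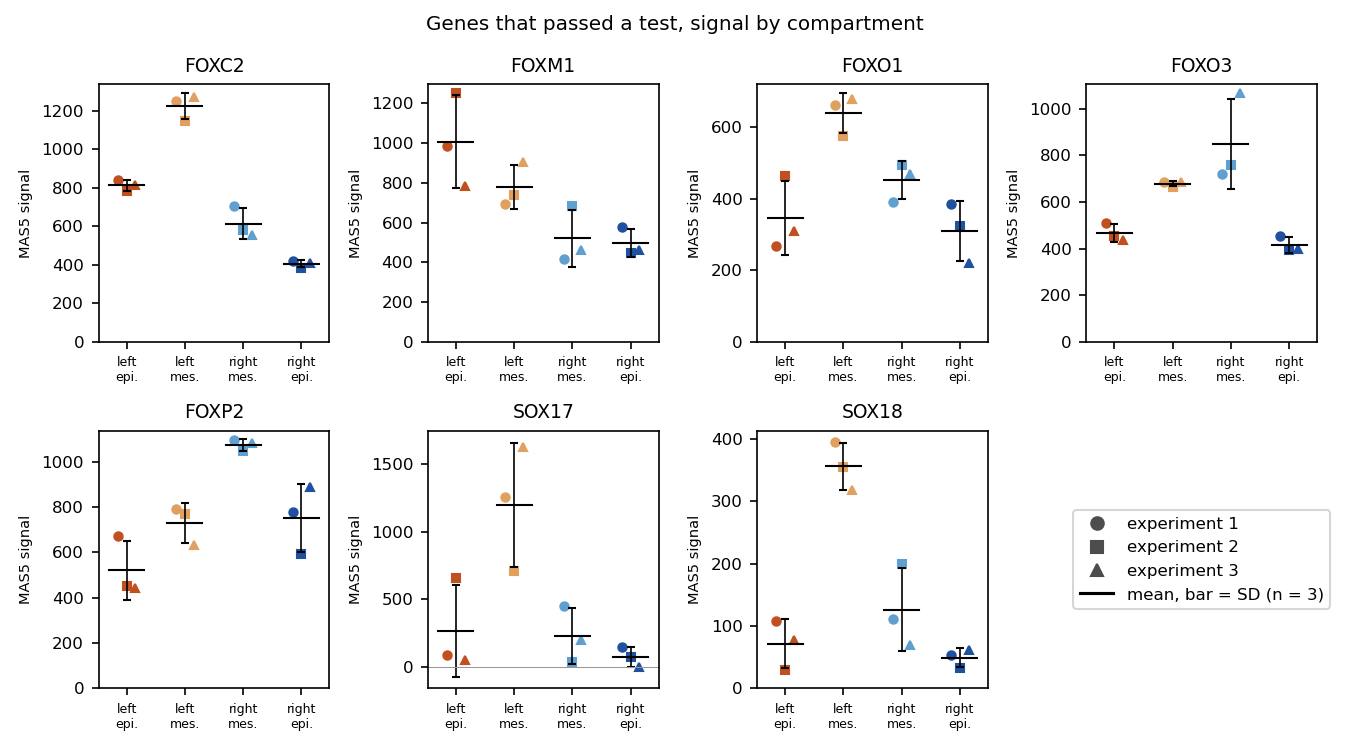
MAS5 signal (linear axis) of the 7 genes that passed at least 1 test, by compartment; symbols mark experiments 1 to 3, horizontal lines the mean and vertical bars the SD of 3 arrays. The 4 FOXC2 compartments do not overlap, FOXO3 separates the layers, and SOX17 spreads widely within left epithelium and right mesenchyme.

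FOXP2, a forkhead repressor known from developing lung, gut and brain, passed in the test for any difference among the 4 compartments and in none of the single comparisons. Its signal was 1096, 1047 and 1082 in right mesenchyme, above every other array. It was 793, 770 and 631 in left mesenchyme, 777, 592 and 888 in right epithelium and 672, 451 and 443 in left epithelium. The F test gave an adjusted p of 0.019, and this call ended under 10 of 25 alternatives. The adjusted p rose to 0.096 without right mesenchyme 2, 0.083 without left epithelium 3 and 0.075 without the intensity trend in the fit. Without experiment 1, 2 or 3 it was 0.085, 0.22 and 0.11. The single differences were -0.55 ± 0.20 log2 for left against right mesenchyme (adjusted p = 0.24), -0.52 ± 0.20 for left against right epithelium (0.26) and -0.51 ± 0.14 for epithelium against mesenchyme (0.051). Each was negative in 3 of 3 experiments. The layer difference passed under 6 of 25 alternatives, among them array weights (adjusted p = 0.026) and quantile normalization (0.047). Its highest adjusted p was 0.46. A further probe set that is shared with MDFIC, and so left out of the members, had its highest mean in right mesenchyme (916) and its lowest in left epithelium (530). Its means were 824 in right epithelium and 770 in left mesenchyme. In the same order of comparisons it differed by -0.25 ± 0.19, -0.61 ± 0.19 and -0.35 ± 0.13 log2, and none passed (adjusted p = 0.67, 0.11 and 0.17).

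In left against right mesenchyme, left against right epithelium and epithelium against mesenchyme, 4.55%, 9.09% and 22.7% of the 22 tested members passed. These shares were not tested against those over all probe sets. Between left and right mesenchyme FOXC2 alone rose, 1 of 22 tested members, and 0 fell. Of all probe sets tested 1.99% passed, with 0.932% higher and 1.06% lower on the left. In epithelium FOXC2 and FOXM1 rose and 0 fell, where 2.47% of all passed, 1.00% higher and 1.47% lower. In epithelium against mesenchyme 5 members fell (FOXC2, FOXO1, FOXO3, SOX17 and SOX18) and 0 rose, where 4.79% of all passed, 2.79% lower and 2.00% higher. The F test for any difference called 6 (27.3%), namely FOXC2, FOXM1, FOXO3, FOXP2, SOX17 and SOX18, where 7.34% of all passed. The median difference of the tested members was -0.03 log2 between the mesenchymes, 0.15 between the epithelia and -0.14 between the layers.

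Groups that did not overlap were more frequent than calls. In left mesenchyme 7 of the 22 tested members lay wholly above right mesenchyme (FOXC2, FOXM1, FOXO1, SOX3, SOX11, SOX17 and SOX18) and 3 wholly below it (FOXO3, FOXP1 and FOXP2), where the shares over all probe sets were 8.93% and 8.78%. In left epithelium 3 lay above the right (FOXC2, FOXM1 and FOXO4) and FOXC1 below, against 7.77% and 7.91%. No tested member was wholly higher in epithelium than in mesenchyme (0.793% of all were). These counts rest on members that passed the filter.

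**Figure D4:**
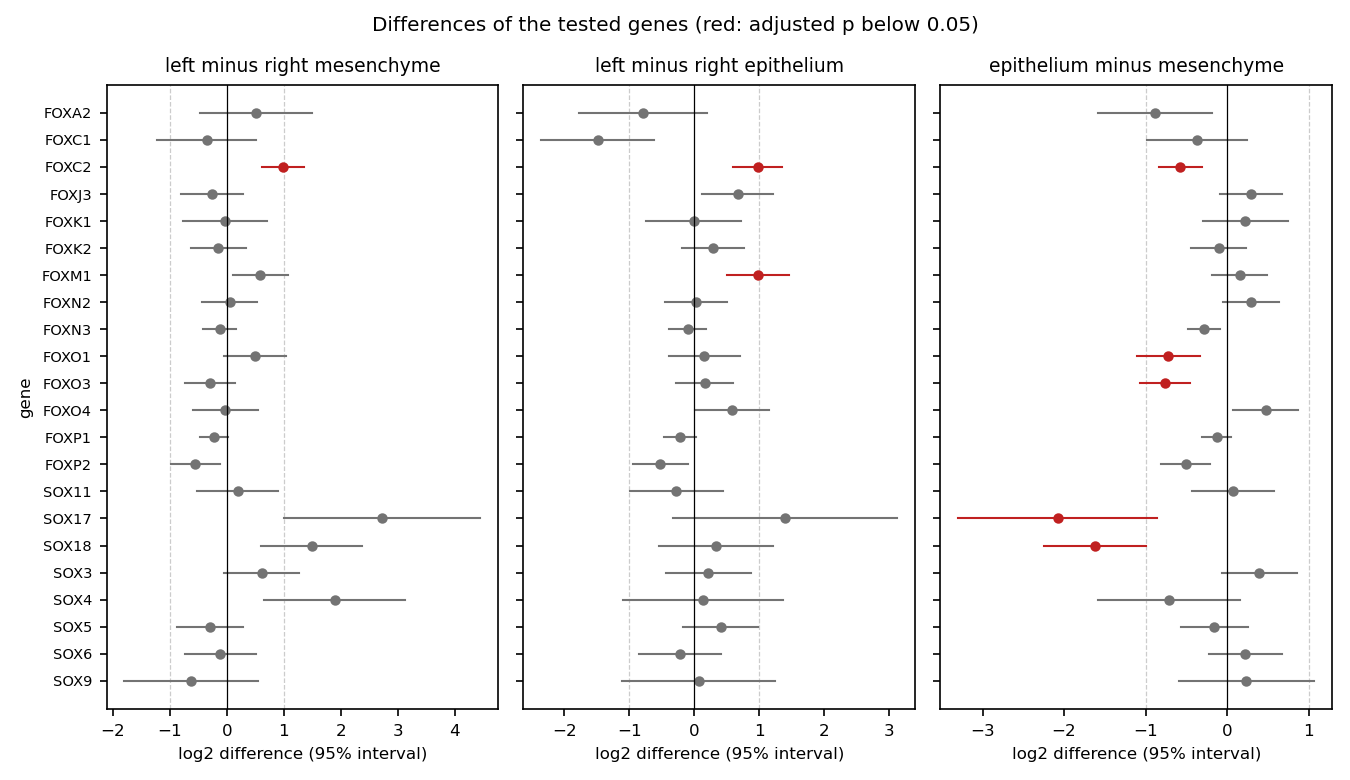
Log2 difference with its 95% interval for the 22 tested genes in left minus right mesenchyme, left minus right epithelium and epithelium minus mesenchyme; red marks an adjusted p below 0.05 and dashed lines a 2-fold change. FOXC2 is red in all 3 panels, and the intervals of SOX17, SOX4 and SOX9 are the widest.

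For several brightly measured forkhead genes the chosen probe set had a narrow interval. FOXP1, which encodes a relative of FOXP2, had a mean signal of 3015 ± 206 and 3529 ± 47.0 in left and right mesenchyme and 2761 ± 119 and 3247 ± 483 in left and right epithelium. Its 95% intervals were -0.48 to 0.02 log2 between the mesenchymes, -0.47 to 0.03 between the epithelia and -0.31 to 0.05 between the layers. These bounds are those of the chosen probe set. A second bright FOXP1 probe set, with means of 977 to 1569, lay outside them at -0.56 ± 0.17 between the mesenchymes (adjusted p = 0.12) and 0.24 ± 0.12 between the layers (adjusted p = 0.33). FOXN3, the gene of a checkpoint-linked repressor, had intervals of -0.41 to 0.16, -0.39 to 0.18 and -0.48 to -0.08, the last with an adjusted p of 0.11 (0.027 to 0.87 over 25 alternatives). Its other probe sets did not all keep to these bounds. One was at 0.18 ± 0.22 between the mesenchymes (adjusted p = 0.83) and another at -0.48 ± 0.33 between the epithelia (0.62). FOXK2, one of the ubiquitous FOXK genes, had -0.62 to 0.33, -0.19 to 0.76 and -0.44 to 0.23, and its relative FOXK1 spread more widely. Another FOXK2 probe set lay just outside the second interval at -0.21 ± 0.24 (adjusted p = 0.79). FOXN2 had -0.43 to 0.53, -0.45 to 0.51 and -0.04 to 0.63, and a dimmer FOXN2 probe set lay above the last at 0.72 ± 0.27 (adjusted p = 0.17). Between the epithelia that probe set was at -0.47 ± 0.38 (adjusted p = 0.69).

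The interval lay within a 2-fold change in either direction for 12 of the 22 between the mesenchymes, 12 between the epithelia and 15 between the layers. The shares over all probe sets were 64.7%, 63.7% and 85.7%. FOXJ3 was at 925, 609 and 435 in left epithelium and between 330 and 514 on all other arrays. Its left-right difference in epithelium was 0.67 ± 0.26 (adjusted p = 0.25), 1.37 log2 in experiment 1 and -0.0003 in experiment 3.

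FOXA2, a factor of endoderm and floor plate, was low. Its signal ranged from 84.7 to 184 in left mesenchyme, 29.7 to 132 in right mesenchyme, 37.5 to 84.6 in right epithelium and 18.4 to 46.3 in left epithelium. It differed by -0.88 ± 0.33 log2 between the layers (adjusted p = 0.16). Its relative FOXA1 was above the floor on 8 of 12 arrays and was not tested.

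Among the remaining SOX genes none passed by its chosen probe set. SOX4, a factor of progenitor cells, was at 171, 253 and 204 in left mesenchyme and at 9.18, 18.6 and 231 in right mesenchyme. The first 2 right arrays were below their floors and the third lay among the left ones, and the difference of 1.89 ± 0.58 log2 had an adjusted p of 0.13. Over 25 alternatives the adjusted p ranged from 0.015 to 0.60, and it was 0.023 without right mesenchyme 3. The other SOX4 probe set was above the floor on 4 arrays and was not tested. Its means were 13.0 in left and 26.9 in right mesenchyme. SOX11, a SOX4 relative, spanned 51.4 to 151 over the 12 arrays and differed by at most 0.28 in any of the 3 comparisons. SOX3 was at 97.3 to 127 in right mesenchyme and 129 to 308 in left mesenchyme, without overlap (0.61 ± 0.31, adjusted p = 0.46).

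SOX9, which directs cartilage and is also known from gonad and neural crest, ranged from 78.5 to 201 on 11 arrays and was at 14.0 on left mesenchyme 3. Its differences were -0.62 ± 0.56 log2 between the mesenchymes, 0.07 ± 0.56 between the epithelia and 0.24 ± 0.39 between the layers. The chosen probe sets of SOX5 and SOX6, its partners in cartilage, differed by at most 0.41 in these comparisons. For SOX5 this does not hold of every probe set, since 2 others passed as lower in epithelium, by 1.25 and 0.94 log2 (adjusted p = 0.0043 and 0.034). Of 14 listed symbols of cartilage matrix genes with enhancers bound by these factors 12 were matched and 7 tested. In epithelium HAPLN1, a link protein gene, fell by 1.43 ± 0.12 and LECT1, the chondromodulin gene, by 0.64 ± 0.09. LECT1 also fell on the left in both layers, by 0.68 ± 0.13 in mesenchyme and by 0.53 ± 0.13 in epithelium. The list's median was -0.31 log2 in left against right mesenchyme, -0.47 in left against right epithelium and -0.26 between the layers. In the same order the medians over all probe sets tested were 0.0018, 0.011 and -0.011. Of all probe sets tested, 1.06% fell in left mesenchyme, 1.47% in left epithelium and 2.79% in epithelium against mesenchyme.

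Genes of the hedgehog pathway, which acts upstream of FOXF genes in gut mesenchyme, gave no call. Of 15 listed 12 were matched and 9 tested, and 0 passed in any of the 4 comparisons, with medians of 0.03 log2 between the mesenchymes, 0.02 between the epithelia and -0.04 between the layers. Over all probe sets tested, 1.99%, 2.47% and 4.79% passed between the mesenchymes, the epithelia and the layers. IHH was above the floor on no array. Of 17 genes of motile cilia, the programme that FOXJ1 directs, 13 were matched and 6 tested, and 0 passed.

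The change between the sides was not shown to differ between epithelium and mesenchyme for any member. In the interaction limma called 0 of the 22 tested members and 0.0260% of all probe sets, and 2 members, FOXJ3 and SOX4, had an unadjusted p under 0.05. The largest values were those of SOX4 (-1.76 ± 0.83 log2, adjusted p = 0.85), SOX17 (-1.32 ± 1.15) and FOXA2 (-1.30 ± 0.66). The interaction interval lay within 2-fold either way for FOXC2, FOXN2, FOXN3, FOXP1, FOXP2 and SOX6, and for 41.2% of all probe sets tested.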

How the data were processed

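The authors deposited 1 table of intensity values. The submitters' processing notes name MAS5 and GCOS without versions. The arrays' means after trimming 2% at each end were equal, so the authors' scaling was kept. Per the labels' protocols, RNA was amplified with a NuGEN kit and labelled from 5 ng. Symbols came from the platform annotation of 2016, and all 38 members stood in RefSeq under the same symbol. After adding 16, log2 was taken, which understates changes of dim genes. Non-control probe sets above the 40th percentile of mean log2 signal (47.4) were tested. The control probe sets behind the floor were chosen after their values were seen.

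A linear model of compartment and experiment (a fixed block) was fitted to the 12 arrays with limma 3.58.1 (R 4.3.3), and eBayes used an intensity trend. Two-sided p-values were adjusted by Benjamini-Hochberg over 23063 probe sets, with a threshold of 0.05. A plain exact test of 3 against 3 arrays cannot go below p = 0.1. Differences carry SEs and signals SDs. Fold changes are 2 to the power of the log2 difference. The replicate number was read as the experiment, which per the series text gave all 4 compartments. Deviations from compartment means correlated at -0.063 to 0.105 over 18 pairs with the same number, and 11 of 12 arrays correlated best with their own number. The number of arrays limits the precision.

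Members, gene lists and tests were chosen with earlier results of these data known. Named are members past a threshold, the 3 largest differences per comparison that did not pass, and the 10 brightest probe sets, with other members added after their values were seen. From lists, at most 4 genes per comparison are named. Alternatives changed the block, pseudocount, filter, normalization, trend, weights, probe set and arrays. Figures were drawn with matplotlib 3.10.9.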

Additional observations from a re-analysis of the deposited data

Results flagged for a closer look

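FOXO3 differed between left and right with opposite signs in the layers, in 3 of 3 experiments each. The difference was -0.29 log2 in mesenchyme and 0.16 in epithelium, and neither passed (adjusted p = 0.65 and 0.83). The interaction that tests this contrast was 0.45 ± 0.29 log2 and did not pass (adjusted p = 0.91, and 22 members were tested in this way). No group of 3 arrays was tested for outlying arrays.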

How the results depend on the processing

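In the comparisons where a member was called, its difference kept its sign under every alternative in which it was tested. In other comparisons signs could change, as for FOXM1 between the layers (-0.01 to 0.28 log2). The numbers of members called were 1 between the mesenchymes, 2 between the epithelia, 5 between the layers, 0 in the interaction and 6 in the F test. Leaving out single arrays or whole experiments gave 0 to 2, 0 to 3, 1 to 6, 0 and 1 to 8. Without an intensity trend they were 1, 1, 3, 0 and 3. With each gene's second brightest probe set, where it has one, they were 0, 1, 3, 0 and 4. FOXC2 and FOXO3 then lost every call, and the second probe set of SOX17 was not tested. FOXM1, FOXO1, FOXP2 and SOX18 have 1 probe set each, so this alternative did not change them. The layer count then included SOX5, which had no call by its chosen probe set. With the fit limited to the 2 groups compared, 3 passed between the mesenchymes and 0 between the epithelia. Between the mesenchymes 2 passed with a pseudocount of 64 and 3 with array weights. Without right mesenchyme 3 and right epithelium 3, an alternative chosen after seeing the data, the counts were 2, 1, 4, 0 and 3. Without the experiment as a replicate block they were 1, 2, 5, 0 and 7, FOXO1 being added to the F test (adjusted p = 0.044), and the block changed no other call. Over all probe sets, without the trend, 205, 268, 672, 0 and 964 passed, against 460, 569, 1105, 6 and 1692. SOX4, SOX9, SOX17 and FOXA2 spread most widely between experiments, with SEs of 0.46 to 0.82 log2 in left against right, so that 2-fold differences in them were not detectable. This limit was not confined to them. At SEs of 0.41 and 0.42, differences of 2.80-fold did not pass for FOXC1 in epithelium and SOX18 in mesenchyme.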

Other observations

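The probe set chosen for SOX5 and its other probe sets gave different results between the layers. This was noticed after the values were seen. SOX5 encodes a SOX factor without a transactivation domain that acts with SOX6 and SOX9. The chosen probe set had 387 ± 122 and 288 ± 101 in left and right epithelium, against 333 ± 88.6 and 406 ± 72.6 in left and right mesenchyme (-0.16 ± 0.19 log2, adjusted p = 0.77). Another SOX5 probe set had 164 ± 104 and 204 ± 29.5 in left and right epithelium against 445 ± 76.8 and 433 ± 102 in mesenchyme, and fell by 1.25 log2 in epithelium (adjusted p = 0.0043). Another had 232 ± 77.8 and 88.4 ± 20.4 against 295 ± 17.5 and 291 ± 111, and fell by 0.94 (adjusted p = 0.034). These were the only calls among 19 tested further probe sets of 10 members. Of all probe sets tested, 2.79% fell in epithelium. Which transcripts the probe sets read was not analysed here.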
